A study of Homo sapiens with 8 samples.

Results

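Long intergenic non-coding RNA genes, those with a LINC symbol, were followed in CCRF-CEM-C7-14 cells over 10 h in dexamethasone, a synthetic glucocorticoid. The array named 839 such genes by a probe set that carries that symbol and no other, and 160 of them were kept. Each gene was represented by its brightest probe set over the 8 arrays. It was kept when the mean log2 level was at least 5.0 over all 8 arrays, which 153 genes met, or over the 2 arrays at 10 h, through which 7 more entered. These genes were thus selected on measured levels, the 10 h levels included. The 160 genes are among 19775 genes with a single symbol. All 160 are classed as long non-coding RNA genes in RefSeq.

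CCRF-CEM-C7-14 is a clone of CCRF-CEM, a line from a T-cell acute lymphoblastic leukaemia, so all arrays describe 1 clone. Every culture, untreated ones included, had charcoal-stripped serum, from which most steroid hormones are removed. The untreated group (0 h) had 3 arrays, and 1 µM dexamethasone was given for 2 h (3 arrays) or for 10 h (2 arrays). The labels call the arrays of a group biological replicates. No untreated culture at 2 h or 10 h was analysed here, so time in culture and dexamethasone cannot be told apart.

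Long non-coding RNAs are transcribed by RNA polymerase II and often spliced and polyadenylated, and they lack a long open reading frame. Many stay near the site of transcription, and some act on neighbouring genes in cis while most have no assigned role. LINC symbols are given to such genes by serial number where no function is known. Dexamethasone binds the glucocorticoid receptor, which then enters the nucleus and binds response elements in DNA, and in lymphoid leukaemia cells it leads to growth arrest and apoptosis.

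The known receptor target TSC22D3, a leucine zipper protein, rose by 2.78 ± 0.19 (log2; SE) at 2 h and by 4.30 ± 0.22 at 10 h, and FKBP5, a co-chaperone of the receptor, rose by 2.16 ± 0.22 at 10 h. Of 11 T-lineage markers, 10 lay above the highest of 27 bacterial negative-control probe sets (4.73, log2), with CD3D at 13 and LCK at 12.4. CD2 lay at 4.72. Of 16 measured markers of B, myeloid, natural killer, erythroid, epithelial and stromal cells, 10 lay above that value, led by CD79A at 8.78 and EPCAM at 8.56, and no marker on any of these lists passed the limma test in any comparison. CD79A, at 0.69 ± 0.21 at 10 h against 0 h, was the 1 marker of another cell type with an unadjusted p below 0.05, and 1 T-lineage marker had one. In that comparison 3.44% of all genes had one, and 0.354% passed. The medians of 3 arrays, 0 h replicate 2, 2 h replicate 3 and 10 h replicate 1, were 4.68, 4.68 and 4.77, and those of the other 5 lay between 4.91 and 5.01. Each time has 1 of these 3 low-median arrays.

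Most of the kept genes were dim. Their mean levels ran from 4.73 to 9.10, with a median of 5.52 and quartiles of 5.22 and 6.20. A level of 5 to 6 was held by 107 genes, 6 to 7 by 27, 7 to 8 by 9, and 8 or more by 10, and the other 7, kept through the 10 h arrays, lay below 5. At 0 h, 5 genes had a mean at or below the highest negative control. Different probe sets bind with different strength, so these figures describe signal and not the order of transcript abundance. Just inside the threshold were LINC00705 (5.03), LINC01341 (5.02) and LINC01874 (5.02), and just outside it were LINC00582 (5.0, unrounded below it), LINC02171 (4.99) and LINC01096 (4.97).

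The 6 genes with the highest signal were LINC00621 (9.10), LINC00938 (8.99), LINC01806 (8.80), LINC02036 (8.75), LINC00520 (8.41) and LINC00957 (8.37). The probe set of LINC00621 has the suffix that the array maker gives to probes that may cross-hybridise with unrelated transcripts, and that of LINC00520 the suffix for probes shared between transcripts. In all, 10 kept genes had the first suffix and 13 the second, while 9 had a suffix for several transcripts of a gene and 128 had none. LINC00621 gave 9.36, 9.03 and 9.27 at 0 h, 9.19, 9.29 and 8.81 at 2 h, and 8.71 and 9.17 at 10 h. Its groups overlapped. LINC00957 gave 8.27, 8.06 and 8.59 at 0 h, 8.35, 8.57 and 8.13 at 2 h, and 8.84 and 8.15 at 10 h, and its 10 h arrays lay apart and overlapped both other groups. LINC01806 gave 9.01, 8.80 and 8.13 at 0 h, 9.19, 8.99 and 8.43 at 2 h, and 8.84 and 9.02 at 10 h. Replicate 3 was lowest at 0 h and at 2 h.

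After 2 h, no kept gene passed a Benjamini-Hochberg adjusted p below 0.05 in the limma fit over all 19775 genes. Over all genes 4 passed, or 0.0202%. At an unadjusted p below 0.05 there was 1 kept gene of 160, 0.625%, against 187 of 19775 genes, or 0.946%. The median log2 difference was -0.01 over the kept genes, with quartiles of -0.13 and 0.05, and 0.02 over all genes. In 159 of 160 genes the 95% interval of the difference lay within a 2-fold change (99.3% of all genes), and in 113 within a 1.5-fold change (73.2% of all genes). The exception to the 2-fold bound was LINC00528. In RNA of whole cultures, a change in the number of cells that express a gene and a change per cell cannot be told apart.

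The gene with an unadjusted p below 0.05 at 2 h was LINC01431, which RefSeq places between NXT1, a nuclear transport factor, and GZF1, a zinc finger repressor. Its log2 levels were 4.92, 4.81 and 5.01 at 0 h, 5.37, 5.31 and 5.14 at 2 h, and 5.45 and 5.43 at 10 h. All arrays of either treated group lay above all untreated ones, close to the level of the negative controls. The difference was 0.36 ± 0.17 at 2 h (limma unadjusted p = 0.0467, adjusted p = 1.00) and 0.52 ± 0.19 at 10 h (limma unadjusted p = 0.0125, adjusted p = 0.896). NXT1 differed by -0.38 and GZF1 by 0.28 at 10 h, and neither passed the test. The start of LINC01431 is shown because its arrays separated from the untreated ones at both times. The window of 300 bases, 250 before and 50 after the annotated start, comes from RefSeq on GRCh38.p14, chr20:23358078-23358377, minus strand, and the capitals mark an E-box (CACGTG), the only one of the motifs listed below that it holds.
LINC01431: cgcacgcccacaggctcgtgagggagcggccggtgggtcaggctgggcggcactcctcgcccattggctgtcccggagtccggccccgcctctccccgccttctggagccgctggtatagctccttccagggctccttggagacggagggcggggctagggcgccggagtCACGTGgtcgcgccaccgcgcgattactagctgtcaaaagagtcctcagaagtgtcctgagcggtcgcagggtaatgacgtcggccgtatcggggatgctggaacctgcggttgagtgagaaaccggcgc
The window holds 31 CpG dinucleotides and 67.7% G and C.

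The other differences at 2 h that were largest in size also missed the test. LINC00528 differed by 0.56 ± 0.30 and LINC01120 by 0.47 ± 0.23. LINC00115, which entered through its 10 h arrays, differed by 0.41 ± 0.21. On the low side LINC01988 differed by -0.40 ± 0.20, LINC02703 by -0.39 ± 0.20, LINC01186 by -0.34 ± 0.22 and LINC00520 by -0.33 ± 0.20. LINC01988 gave 6.02, 5.48 and 5.60 at 0 h, 5.14, 5.61 and 5.14 at 2 h, and 5.43 and 5.41 at 10 h, so that 0 h and 2 h overlapped. In 4 kept genes all 2 h arrays lay above all 0 h arrays, LINC01120, LINC01431, LINC00339 and LINC02838, and in LINC02709 all lay below. That is 2.5% and 0.625% of the kept genes, beside 2.94% and 1.10% of all genes.

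**Figure D1:**
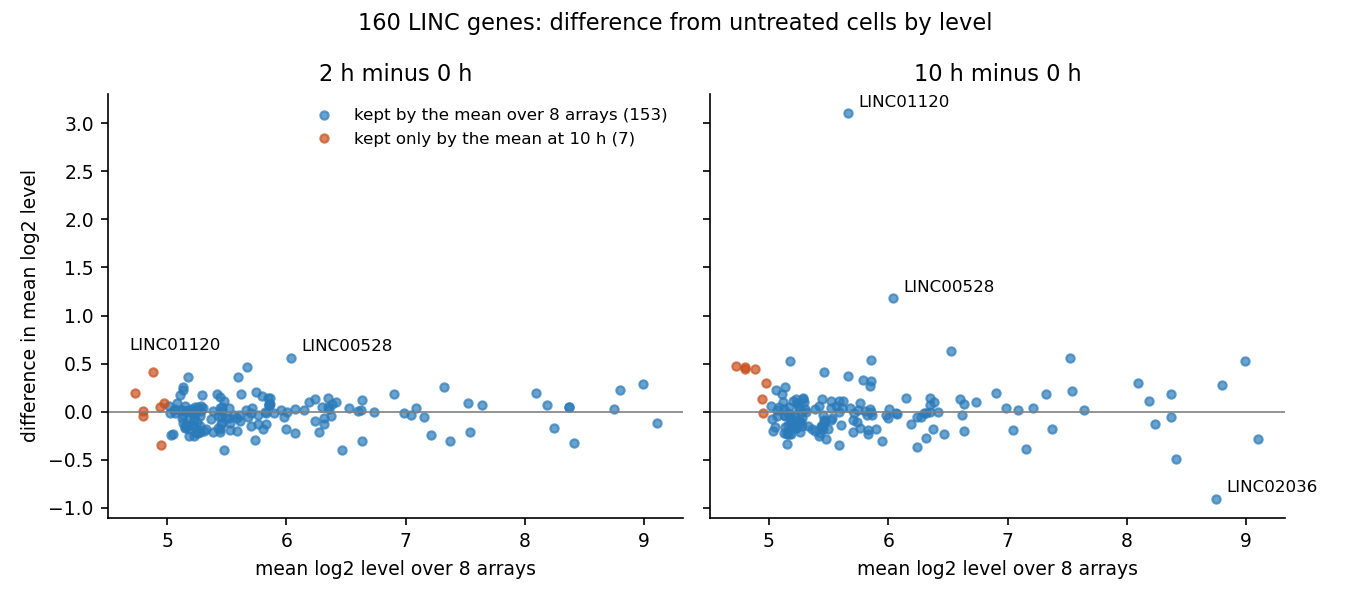
Each point is 1 of the 160 LINC genes, with its mean log2 level over 8 arrays on the x axis and the difference in mean log2 level from untreated cells on the y axis, at 2 h (left) and 10 h (right). Orange points are the 7 genes kept only by their 10 h mean, and LINC01120, at 0.47 and then 3.11, stands apart at 10 h.

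LINC01120 had the largest difference at 10 h. It belongs here through the 10 h arrays themselves, because its mean over the 6 arrays at 0 h and 2 h was 4.95, so its 10 h values are a description and carry no test. Its log2 levels were 4.71, 4.74 and 4.69 at 0 h, 5.25, 5.26 and 5.03 at 2 h, and 8.38 and 7.26 at 10 h. The untreated arrays lay at the highest negative control, the 2 h arrays somewhat above it, and both 10 h arrays far above, though 1.12 apart from each other. Because the untreated signal was at background, the difference is a lower bound in that respect only. With the highest negative control as the floor of each untreated array, the 10 h mean was 3.09 higher on the log2 scale, or 8.52-fold. That value makes no allowance for the spread of the 2 arrays at 10 h or for the choice of probe set. The fitted difference was 3.11 ± 0.26 from 0 h and 2.64 ± 0.26 from 2 h.

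A single probe set carried this difference. The other probe set of LINC01120 had a mean of 4.56, below the highest negative control, and differed by 0.09 at 10 h, and with both averaged the difference was 1.60. Without 10 h replicate 1 the difference was 2.55, and without replicate 2 it was 3.67. Between the low-median arrays of each time it was 3.64, and among the other arrays it was 2.56. LINC01120 lies on chromosome 2, and the nearest coding genes in RefSeq, RAB6D and MZT2A, were not among the genes measured. The nearest measured ones were PLEKHB2, an endosomal membrane protein, at -0.05 ± 0.21 and GPR39, a zinc-sensing receptor, at -0.16 ± 0.19, and neither passed the test.

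At 10 h against 0 h, LINC01120 was the 1 of 160 kept genes with an adjusted p below 0.05 in limma, beside 70 of all 19775 genes or 0.354%. Since its 10 h arrays put it among the kept genes, nothing is read from that count. A count with less use of the 10 h arrays takes every LINC gene whose mean over the 0 h and 2 h arrays alone was at least 5.0. These were 151 of the 160 kept genes and also LINC00582 and LINC02171, which low 10 h arrays held below the threshold and which differed by -0.16 and -0.12 at 10 h. The brightest probe set was still chosen over all 8 arrays. Here the 0 h and 2 h arrays pick the genes, which favours genes high on them and can tilt differences at 10 h towards lower values. None of these 153 passed in limma, but the set leaves out LINC01120, the only LINC gene that did, so nothing is read from that. An unadjusted p below 0.05 was held by 8, which is 5.23% beside 3.44% of all genes. The median difference over the 153 was -0.03, with a lowest value of -0.90 and a highest of 1.18, and over all genes it was -0.02. In 147 of the 153 the 95% interval lay within a 2-fold change (96.9% of all genes), and in 79 within a 1.5-fold change (50.7% of all genes).

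All 10 h arrays lay above all 0 h arrays in 13 of the 160 genes and below in 13. Over all genes the shares were 6.56% and 6.51%. Among the 153 genes picked on the 0 h and 2 h arrays, 10 lay above, or 6.54%, and 14 below, or 9.15%. Picking on the 0 h arrays can tilt these shares towards lower values at 10 h, and nothing is read from them. At 10 h against 2 h, 1 kept gene passed, again LINC01120, beside 33 of all genes or 0.167%, and 4 had an unadjusted p below 0.05 beside 3.15% of all genes. In that comparison 8 genes lay above and 5 below without overlap, beside 5.43% and 9.29% of all genes. Nothing is read from these counts either, since the 10 h arrays helped to choose the 160. That none of the 153 genes picked on the 0 h and 2 h arrays passed in limma follows from leaving out LINC01120. Of these 153, 2 had an unadjusted p below 0.05, or 1.31%, and 6 lay above and 5 below, or 3.92% and 3.27%, with the same tilt. The comparisons share arrays and are not independent of each other.

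LINC00528 had the next largest positive difference at 10 h. It lies on chromosome 22 between BID, a pro-apoptotic member of the BCL2 family, and MICAL3, an actin-linked monooxygenase. Its log2 levels were 6.0, 5.74 and 4.84 at 0 h, 6.51, 6.38 and 5.38 at 2 h, and 6.86 and 6.56 at 10 h. The 10 h arrays lay above every other array, while 0 h and 2 h overlapped, and the third array was the lowest of both groups. The difference at 10 h was 1.18 ± 0.33 (limma unadjusted p = 0.00234, adjusted p = 0.317), a 2.27-fold higher signal with a 95% interval from 1.40 to 3.68. Without 0 h replicate 3 it was 0.84. At 2 h the difference depended on single arrays: without 0 h replicate 3 it was 0.22, and without 2 h replicate 3 it was 0.92. BID differed by -0.08 ± 0.20 and MICAL3 by -0.21 ± 0.24 at 10 h, and neither passed.

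LINC02036 had the largest negative difference and is among the brightest kept genes. Its log2 levels were 8.73, 8.64 and 9.52 at 0 h, 8.77, 8.83 and 9.36 at 2 h, and 7.73 and 8.39 at 10 h. Both 10 h arrays lay below all 6 others, and 0 h and 2 h overlapped. The difference was -0.90 ± 0.28 at 10 h (limma unadjusted p = 0.00455, adjusted p = 0.500), with a 95% interval from -1.49 to -0.32, and 0.02 ± 0.25 at 2 h. It was -0.58 without 10 h replicate 1 and -1.23 without replicate 2. Within the low-median arrays it was -0.91 and within the others -0.74.

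The coding gene before LINC02036 on chromosome 3 is HES1, a transcriptional repressor that Notch signalling switches on. HES1 gave 7.67, 7.81 and 7.65 at 0 h, 7.30, 7.20 and 7.52 at 2 h, and 5.95 and 6.64 at 10 h. It fell by 1.42 ± 0.22 at 10 h (limma adjusted p = 0.0030), and 10 h replicate 1 was the lowest array for both genes. HES1 passed in 16 of 19 alternatives. Without that array it differed by -1.07 (limma adjusted p = 0.196) and without the 3 low-median arrays by -1.02 (limma adjusted p = 0.173), fits in which a single 10 h array is left and is taken to vary like the other groups. With probe sets that have no suffix preferred, HES1 differed by -0.37 and did not pass. The window of LINC02036 is shown because this gene and its neighbour were both lowest at 10 h. It is chr3:194250104-194250403, minus strand, 1 of 2 RefSeq windows of the gene, and the capitals mark a single arm of the glucocorticoid response element (AGAACA, read here on the other strand as TGTTCT), whose first base is at -160 from the start. The other window of the gene, which is not shown, holds none of the motifs listed below.
LINC02036: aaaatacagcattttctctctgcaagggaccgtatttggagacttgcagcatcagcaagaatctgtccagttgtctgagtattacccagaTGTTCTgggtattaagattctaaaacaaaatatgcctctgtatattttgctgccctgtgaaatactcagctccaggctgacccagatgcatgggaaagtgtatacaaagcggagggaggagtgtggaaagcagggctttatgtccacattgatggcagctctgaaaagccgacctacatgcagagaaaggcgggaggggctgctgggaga

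**Figure D2:**
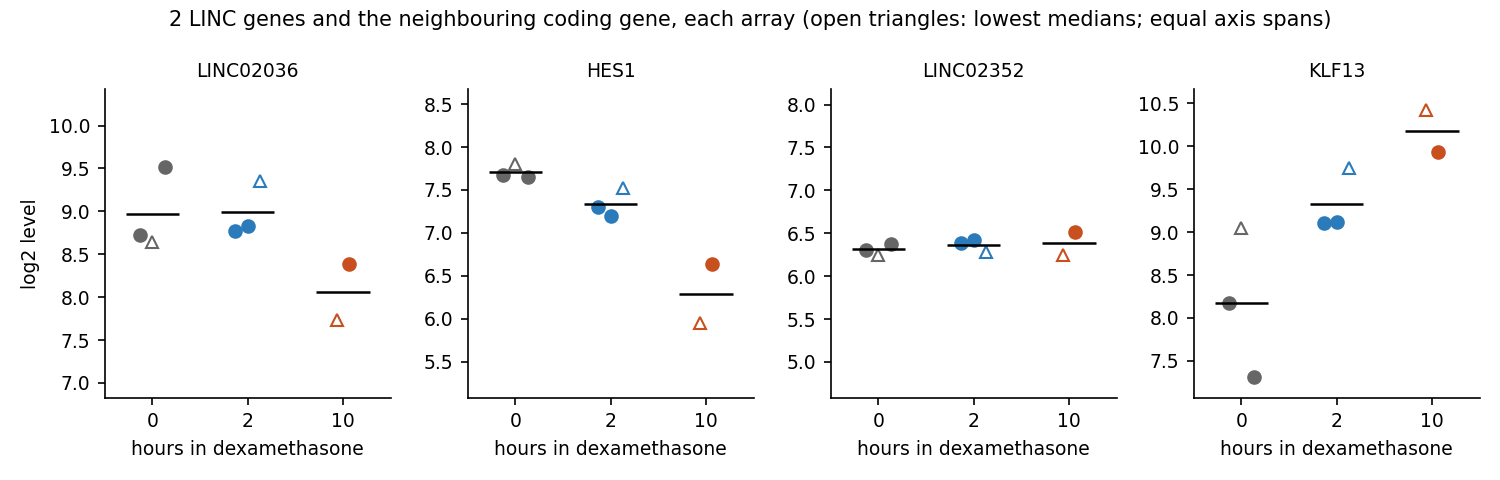
Log2 level (y axis, equal spans) against hours in dexamethasone (x axis) for LINC02036 and its neighbour HES1, and for LINC02352 and its neighbour KLF13. Each symbol is 1 array, open triangles are the 3 arrays with the lowest medians and bars are means; HES1 and LINC02036 are lowest at 10 h, while KLF13 moves from a mean of 8.18 to 10.2 and LINC02352 from 6.31 to 6.38.

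Coding neighbours were compared next. Each kept gene was paired with the nearest measured coding gene on either side, which gave 320 pairs and 294 different neighbours. At 10 h against 0 h, 1 neighbour rose and 1 fell, or 0.680% of the 294 beside 0.354% of all genes, and none passed in limma in either of the other comparisons. An unadjusted p below 0.05 was held by 2 at 2 h against 0 h (0.680%, beside 0.946% of all genes), by 20 at 10 h against 0 h (6.80%, beside 3.44%) and by 14 at 10 h against 2 h (4.76%, beside 3.15%). The neighbour that rose was KLF13, a Krüppel-like factor, at 2.00 ± 0.35 (limma adjusted p = 0.0112). LINC02352, beside it on chromosome 15, gave 6.31, 6.25 and 6.37 at 0 h, 6.38, 6.42 and 6.28 at 2 h, and 6.25 and 6.51 at 10 h, a difference of 0.07 ± 0.18 with a 95% interval from -0.33 to 0.47. The probe set of LINC02352 has the suffix for possible cross-hybridisation. Its other probe set above the controls, at 4.87, differed by -0.16 at 10 h. KLF13 gave 8.18, 9.05 and 7.31 at 0 h, 9.11, 9.12 and 9.75 at 2 h, and 10.4 and 9.94 at 10 h. It passed in 13 of 19 alternatives. With all arrays kept it did not pass after median centring (limma adjusted p = 0.104) or quantile normalization (limma adjusted p = 0.0769). Nor did it pass with trended robust variances (limma adjusted p = 0.579). It also did not pass without 10 h replicate 1, at 1.76, or without replicate 2, at 2.25. In these 2 fits the lone 10 h array is again taken to vary like the other groups. With probe sets without a suffix preferred, KLF13 differed by -0.12. Over 228 pairs whose neighbour lay above the negative controls, Pearson's r between the differences of a kept gene and its neighbour was -0.06 at 2 h and 0.06 at 10 h, both against 0 h, a description across genes that share the same arrays.

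The next largest positive differences at 10 h came from genes that were low on the third untreated array. LINC02910 gave 6.73, 6.33 and 6.0 at 0 h, 6.90, 6.57 and 5.71 at 2 h, and 6.84 and 7.14 at 10 h, a difference of 0.64 ± 0.29. LINC01089, which overlaps the histone methyltransferase gene SETD1B in RefSeq, gave 7.61, 7.36 and 7.09 at 0 h, 7.60, 7.81 and 6.89 at 2 h, and 7.79 and 8.02 at 10 h, a difference of 0.56 ± 0.25. Its second probe set above the controls differed by 0.36, and SETD1B itself by 0.09. LINC01278 gave 6.10, 5.57 and 5.41 at 0 h, 5.61, 6.24 and 5.47 at 2 h, and 6.36 and 6.09 at 10 h, a difference of 0.54 ± 0.25, and its other probe set differed by -0.049. LINC00938 gave 9.04, 8.83 and 8.38 at 0 h, 9.37, 9.15 and 8.57 at 2 h, and 9.22 and 9.34 at 10 h, a difference of 0.53 ± 0.25, and its 3 other probe sets, 1 of them with a mean below the highest negative control, differed by 0.23 to 0.27. For these 4 genes the limma unadjusted p lay between 0.0407 and 0.0491 and the adjusted p rounded to 1.00. In each of them the arrays at 0 h and 2 h overlapped.

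On the low side at 10 h, LINC00520 gave 8.62, 8.35 and 9.0 at 0 h, 8.36, 8.53 and 8.10 at 2 h, and 8.13 and 8.19 at 10 h. The pair at 10 h lay below all 0 h arrays, and the 2 h arrays overlapped both. Its difference was -0.49 ± 0.22 (limma unadjusted p = 0.0380, adjusted p = 1.00). LINC00294 differed by -0.39 ± 0.22, LINC00269 by -0.37 ± 0.23, LINC02209 by -0.34 ± 0.21 and LINC01566 by -0.34 ± 0.24, none with an unadjusted p below 0.05. LINC02703 differed by -0.24 ± 0.22 at 10 h.

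**Figure D3:**
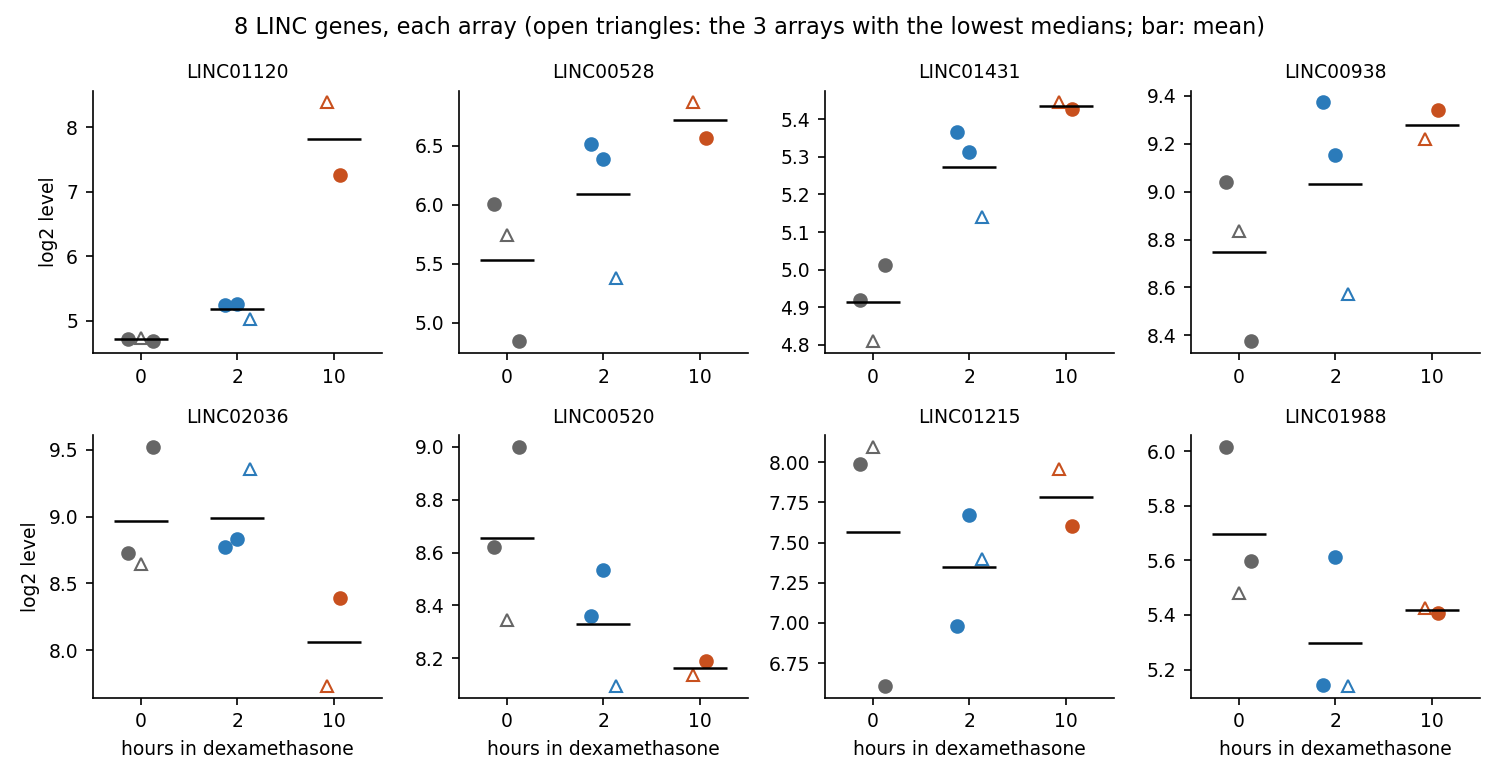
Log2 level (y axis, a different range in each panel) against hours in dexamethasone (x axis) for 8 of the LINC genes named in the text. Each symbol is 1 array, open triangles are the 3 arrays with the lowest medians and bars are group means. LINC01120 moves by over 2 units at 10 h, and in LINC01431 every treated array lies above the untreated ones. In the remaining panels the 0 h and 2 h arrays overlap, and spreads within a time are large beside the differences at 2 h.

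The 7 genes kept through their 10 h mean alone had that mean between 5.01 and 5.17, and their 10 h values are given without a test. LINC01816 averaged 4.87 at 0 h and 5.17 at 10 h, LINC03011 4.7 and 5.15, LINC00484 4.68 and 5.14, LINC01186 5.08 and 5.07, LINC00115 4.62 and 5.06, LINC00460 4.89 and 5.02, and LINC02065 4.54 and 5.01. In LINC00115 the 10 h arrays gave 4.69 and 5.42, in LINC00460 5.41 and 4.62, and in LINC02065 5.25 and 4.77, so 1 array lay above the threshold and the other below it. The same held for LINC01816 with 5.44 and 4.90, LINC03011 with 4.95 and 5.35, and LINC00484 with 4.95 and 5.34. It also held, narrowly, for LINC01186 with 4.9985 and 5.14. All 10 h arrays lay above all 0 h arrays only in LINC03011 and LINC00484 among these 7. LINC00028 also needed the 10 h arrays to reach 5.0 over 8 arrays, with 4.62, 4.91 and 5.44 at 0 h, 4.91, 5.38 and 4.74 at 2 h, and 5.41 and 5.03 at 10 h.

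Spread among arrays of the same time was as large as most differences between times. The pooled SD within times had a median of 0.25 over the kept genes and of 0.23 over all genes. LINC01215 had the largest SD within a group, 0.83 at 0 h, from 7.99, 8.09 and 6.61, and it gave 6.98, 7.67 and 7.40 at 2 h and 7.96 and 7.61 at 10 h. LINC02985 gave 4.73, 5.0 and 5.94 at 0 h, 5.05, 5.52 and 5.19 at 2 h, and 4.62 and 5.54 at 10 h. The untreated arrays of LINC01215 spanned all its treated ones, and those of LINC02985 all but 1.

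Much of this spread followed the array. The kept genes had their highest value on 0 h replicate 3 in 69 of 160 cases, or 43.1%, beside 28.3% of all genes and 39.0% of the LINC genes that were not kept. Their lowest value fell on 2 h replicate 3 in 73 cases, or 45.6%, beside 26.2% of all genes and 37.8% of the LINC genes not kept. The lowest value fell on 1 of the 3 low-median arrays in 135 genes, or 84.4%, beside 74.0% of all genes. The mean was lower on those 3 arrays in 150 genes, with a median difference of -0.25 over the kept genes and -0.21 over all. The part of these array levels in the differences above was not tested beyond the values within array sets. A small number of genes went the other way: 9 had their lowest value on 0 h replicate 3, among them LINC00528, LINC00938, LINC01278, LINC01215 and LINC01806.

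**Figure D4:**
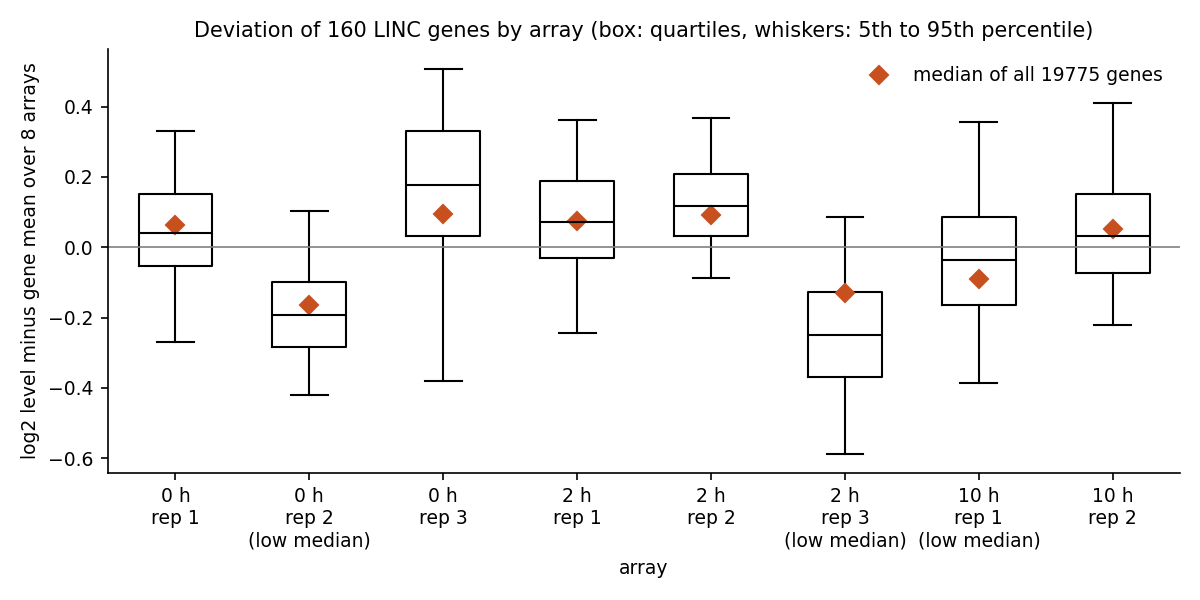
Deviation of each of the 160 LINC genes from its own mean over 8 arrays (y axis, log2) on each array (x axis). Boxes show quartiles, whiskers the 5th and 95th percentiles, and orange diamonds the median over all 19775 genes; the LINC genes sit highest on 0 h replicate 3, with a median of 0.18, and lowest on 2 h replicate 3, with a median of -0.25.

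Other probe sets of the same genes were read in a fit over 54613 probe sets. The kept genes had 264 probe sets, and 61 genes had more than 1. Of 104 probe sets that were not the brightest, 41, from 29 genes, had a mean above the highest negative control. None of the 104 passed in limma, beside 0.00916% of all probe sets at 2 h against 0 h, 0.251% at 10 h against 0 h and 0.108% at 10 h against 2 h. An unadjusted p below 0.05 was held by 2, 1 and 0 of them in that order, or 1.92%, 0.962% and 0%, beside 1.10%, 2.68% and 2.53% of all probe sets. The 41 above the controls differed by between -0.34 and 0.38 at 10 h. Both probe sets of LINC01806 lay well above the controls, at 8.80 and 7.81, and differed by 0.28 and 0.38.

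Promoter windows of 122 kept genes were in the RefSeq table, 135 windows in all, and 38 genes, LINC01120 and LINC00528 among them, had no entry. Motifs were searched on both strands, and a match is a description of letters. The glucocorticoid response element (GNACA and TGTNC with any 3 bases between) was in 1 window of 135 (0.741%; 0.390% of all 35116 windows). The hexamer AGAACA, a single arm of that element, was in 24 (17.8%; 14.8% of all), TGANTCA of AP-1 in 15 (11.1%; 7.71%), the E-box CACGTG in 12 (8.89%; 7.26%) and the Runt site TGTGGT in 10 (7.41%; 13.1%). Windows of all long non-coding RNA genes held these motifs in 0.557%, 20.0%, 10.4%, 5.40% and 16.2%, in the same order. The hexamer can overlap a full element.

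The window with the full element belongs to LINC00689 and is shown for that match, which the capitals mark. It is chr7:159008104-159008403, plus strand, GRCh38.p14, and the match begins at -243 from the start. The hexamer, as TGTTCT, overlaps its last bases.
LINC00689: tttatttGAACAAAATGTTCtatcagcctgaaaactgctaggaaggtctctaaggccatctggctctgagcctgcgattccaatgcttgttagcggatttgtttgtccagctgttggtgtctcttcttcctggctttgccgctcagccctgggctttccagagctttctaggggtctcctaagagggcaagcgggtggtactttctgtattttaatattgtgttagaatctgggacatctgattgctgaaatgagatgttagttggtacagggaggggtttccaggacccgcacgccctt
LINC00689 gave 6.05, 5.89 and 6.61 at 0 h, 6.41, 6.41 and 6.05 at 2 h, and 6.02 and 6.10 at 10 h. Its groups overlapped, with differences of 0.10 ± 0.20 at 2 h and -0.13 ± 0.22 at 10 h and a 95% interval at 10 h from -0.60 to 0.35. Neither passed the test.

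No other non-coding RNA on the lists passed the test. Of the 679 LINC genes that were not kept, 39 had a mean above the highest negative control and none passed in limma in any comparison, with 4, 4 and 5 at an unadjusted p below 0.05 for 2 h and 10 h against untreated cells and for 10 h against 2 h. Among 781 antisense RNA genes none passed, and 12, 11 and 8 had an unadjusted p below 0.05. Of 34 long non-coding RNAs known by name, 27 were measured, 18 lay above the controls and none passed, with 1, 0 and 0 at an unadjusted p below 0.05. Over all genes, in the same order, 0.0202%, 0.354% and 0.167% passed, and 0.946%, 3.44% and 3.15% had an unadjusted p below 0.05. Nothing is read from the lack of calls in lists of this size. MALAT1, a nuclear speckle RNA, lay at 11.8 and differed by 0.03 ± 0.19 at 10 h. NORAD, which binds Pumilio proteins, lay at 11.1 and differed by 0.09 ± 0.20.

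The machinery that degrades nuclear RNA gave no calls either, and nothing is read from that count. At most 0.354% of all genes passed in any comparison, and 0.946%, 3.44% and 3.15% had an unadjusted p below 0.05. Of 28 listed symbols of subunits and cofactors of the nuclear exosome and cap-binding complex, older symbols included, 23 were measured and none passed in limma, with 0, 0 and 1 at an unadjusted p below 0.05. Their median difference was 0.08 at 2 h and -0.13 at 10 h against 0 h, beside 0.02 and -0.02 over all genes. DIS3, a catalytic subunit of the exosome, differed by -0.17 ± 0.20 and MTREX, its nuclear helicase, by -0.13 ± 0.22 at 10 h.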

How the data were processed

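Biotin-labelled RNA of 8 cultures was measured on Affymetrix arrays (1 colour, 54675 probe sets). The deposited values are log2 signals made with RMA, per the submitters' processing notes; its version, and whether the arrays were processed together, are not given in the sources used here. The platform annotation gave 41091 probe sets 1 gene symbol, 1801 several and 11721 none, and 62 were controls; 47 probe sets with a LINC symbol among several were not used. Symbols matched RefSeq for all 160 genes. Groups follow the labelled times.

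The brightest probe set by mean over 8 arrays stood for each of 19775 genes, a choice that the treated arrays enter. limma 3.58.1 in R 4.3.3 fitted a mean per time to all 8 arrays (5 residual degrees of freedom), with 3 contrasts, eBayes and Benjamini-Hochberg adjustment over all genes. Tests are two-sided, calls need an adjusted p below 0.05, and errors of differences are moderated SEs. The fit was run on simulated data with independent noise and no shared shift of an array. These arrays do show such shifts, so that run says nothing about calls under them. With 2 arrays at 10 h, the number of arrays limits the precision.

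The kept genes and all lists were chosen with earlier results of these data known. Named genes are those past the threshold, the 6 brightest, the 6 largest rises and falls at 10 h and 4 at 2 h, those kept through 10 h alone, those nearest the 5.0 threshold and the 5 largest SDs within a time, with the coding neighbours and lists as given. Genes named for other reasons (array overlap, LINC02352 and LINC00689) were chosen after their values were seen. Alternatives were median centring, quantile normalization, other choices of probe set, a filter at the negative controls, other variance models, array weights, blocks for the replicate number and the array set, and leaving out arrays. The count over 153 genes picked on the 0 h and 2 h arrays was added after the data were seen.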

Additional observations from a re-analysis of the deposited data

Results flagged for a closer look

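LINC01120 met the rule for a difference between groups: its difference between 10 h and 2 h was 2.64 (log2). The 2 h arrays gave 5.25, 5.26 and 5.03 and the 10 h arrays 8.38 and 7.26. The gene is among those studied through the 10 h arrays, so this is a description.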

How the results depend on the processing

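Of 420 values of 21 differences of single genes under 20 alternatives each, 419 kept their direction and their side of the threshold. The exception was LINC01278 at 10 h, which turned to -0.049 when probe sets without a suffix were preferred. Some alternatives cannot move a difference, such as those that change only the variance model or the set of genes fitted. Leaving out a 2 h array likewise cannot move a difference between 10 h and 0 h. The 21 differences were picked as those past the threshold or largest in the main fit to the same arrays. All but those of LINC01120 at 10 h, which remain a description, missed the test. A kept direction and side of the threshold were thus likely in advance, and the 420 values are not separate checks of either. The number of kept genes was 244 at a threshold of 4.5, 83 at 5.5 and 51 at 6.0. With genes chosen on the 0 h arrays, which keeps 152 and leaves out LINC01120, 0 passed at 10 h. With the 153 genes that reached 5.0 on the 0 h and 2 h arrays, a choice added after seeing the data, 0 passed at 10 h against 0 h and 0 at 10 h against 2 h. This choice also leaves out LINC01120, the only LINC gene that passed, so the lack of calls follows from either choice of genes. The difference of LINC01120 at 10 h against 0 h lay between 1.60, with averaged probe sets, and 3.67. Over all genes, calls at 10 h against 0 h moved from 70 to 30 without the 3 low-median arrays, 35 and 37 without 10 h replicate 2 and 1, 108 with trended robust variances, 110 with a block for the array set and 127 with array weights; all probe sets gave 137. At 2 h against 0 h they moved from 4 to 26 with array weights, 11 with trended robust variances, 8 with the block for the array set, 7 without 2 h replicate 3, 2 with other choices of the probe set and 1 with averaged probe sets; at 10 h against 2 h, from 33 to 62 with array weights, 59 with all probe sets, 57 with trended robust variances, 52 with the block for the array set, 14 and 12 without 10 h replicate 1 and 2, and 12 without the low-median arrays. Deviations of same-numbered arrays from the mean of their time had correlations from -0.27 to 0.26, and the main fit does not pair them. With 2 or 3 arrays per time, these correlations cannot show whether same-numbered cultures were handled together. With the replicate block, 67 genes passed at 10 h against 0 h, 8 at 2 h and 34 at 10 h against 2 h, and kept genes passing were 0 at 2 h, 1 at 10 h against 0 h and 1 at 10 h against 2 h, as without it. Signal near the negative controls limits what the dim genes can show.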
